A study of Mus musculus with 400 samples.

Results

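The cells described here are the Lgr5-high intestinal cells that were low in transcripts of both cell cycle phases that can be read from mRNA, DNA replication (S phase) and mitosis (M phase). They were 55 of 400 cells, and 21.7% of the cells that passed the 2 filters of the rule. Of the 400 sorted cells, 380 had at least 10000 counts. Cells were then left out if their share of counts in olfactory and vomeronasal receptor genes, which an intestinal cell should not transcribe, was in the highest tertile (from 0.0581% to 0.282%). Each remaining cell received an S value, the mean log2(CPM + 1) of Pcna, Mcm2, Mcm3, Mcm5, Mcm6, Gins2 and Rrm2, and an M value, the same mean of Ccnb1, Ccnb2, Cdc20, Plk1, Aurka, Cenpf and Cenpe. CPM is the usual count scaled to the total of the cell. The 55 cells were chosen by these measured values, as those below the median of both, and are called low in both. The other cells, against which they are described, comprised 71 above the S median only, 71 above the M median only and 56 above both medians.

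All cells came from 1 group. The labels give Lgr5 GFP/+ mice, in which green fluorescent protein is expressed from the Lgr5 locus, and sorted epithelial cells with a high level of it from the duodenum and jejunum. They name no animal, age or treatment for any cell, so the group is 1 sample. A microfluidic chip captured them singly, in 10 library sets of 40 cells that the titles number, and the same barcode numbers recur in each set. No test between classes of cells was possible, because cells of 1 sample are not replicates, and no p-value was computed. Differences are given as the log2 ratio of mean CPM, low in both over other cells, with a pseudocount of 1 CPM. The SD given beside a ratio is over the 9 library sets that held at least 3 cells of each class. It includes the spread from the few cells sampled in a set. No animal is named for a set, so it cannot be read as a spread between animals.

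A dividing cell copies its DNA in S phase and separates the copies in mitosis, with gap phases, G1 and G2, between them. Genes for replication proteins are transcribed by E2F factors from late G1 into S phase, and genes for mitotic proteins by complexes that bind the CHR element (cell cycle genes homology region) in G2. A cell low in both sets of transcripts can be in G1, have left the cycle, or have yielded too few counts for these transcripts to be seen. Lgr5-high cells are the stem cells at the base of the intestinal crypt, where they lie between Paneth cells and divide frequently, and their progeny become absorptive enterocytes or secretory cells such as goblet cells.

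The promoters of the genes that chose the cells hold motifs of both kinds. The 120 bases before the annotated start are printed for 1 S phase gene and 3 M phase genes, from the RefSeq promoter table (GRCm38.p6), 5′ to 3′ on the strand of the gene. Capitals mark the motif letters found. The promoter of Mcm6, a subunit of the replicative helicase (chr1:128359706-128359825, minus strand), holds 3 E2F motifs, 2 of which overlap. Those of Ccnb1, which encodes cyclin B1, the partner of the mitotic kinase Cdk1 (chr13:100786487-100786606, minus strand), and Cdc20, an activator of the ligase that ends mitosis (chr4:118437344-118437463, minus strand), hold 1 CHR motif each. That of Plk1, a mitotic kinase (chr7:122159315-122159434, plus strand), holds 2.
Mcm6: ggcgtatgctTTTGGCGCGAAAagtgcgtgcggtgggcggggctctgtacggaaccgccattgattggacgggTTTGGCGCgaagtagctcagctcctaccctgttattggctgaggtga
Ccnb1: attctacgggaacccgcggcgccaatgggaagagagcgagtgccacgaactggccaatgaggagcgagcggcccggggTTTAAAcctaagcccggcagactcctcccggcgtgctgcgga
Cdc20: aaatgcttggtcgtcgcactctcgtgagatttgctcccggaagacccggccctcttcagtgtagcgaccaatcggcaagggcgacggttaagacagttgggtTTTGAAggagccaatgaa
Plk1: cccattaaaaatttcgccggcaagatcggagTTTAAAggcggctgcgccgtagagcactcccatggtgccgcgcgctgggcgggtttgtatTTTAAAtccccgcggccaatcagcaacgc
The CHR motif was searched as TTTGAA or TTTAAA, and the E2F motif as TTTCCCGC, TTTGGCGC or TTTCGCGC, on either strand of the 250 bases before the start. No CHR motif lies within the letters of an E2F motif. Of 27025 genes in the table, 28.1% held a CHR motif and 1.78% an E2F motif. Of the 7 M phase genes, 5 held a CHR motif (71.4%) and 0 an E2F motif. Of 6 S phase genes with a promoter in the table, 2 held an E2F motif (33.3%) and 2 a CHR motif. In a wider list of mitosis genes, 29 of 65 promoters (44.6%) held a CHR motif and 5 (7.69%) an E2F motif. In a wider list of DNA replication genes, 9 of 48 promoters (18.8%) held a CHR motif and 10 (20.8%) an E2F motif. A match describes the letters in the window and is not evidence of binding.

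**Figure D1:**
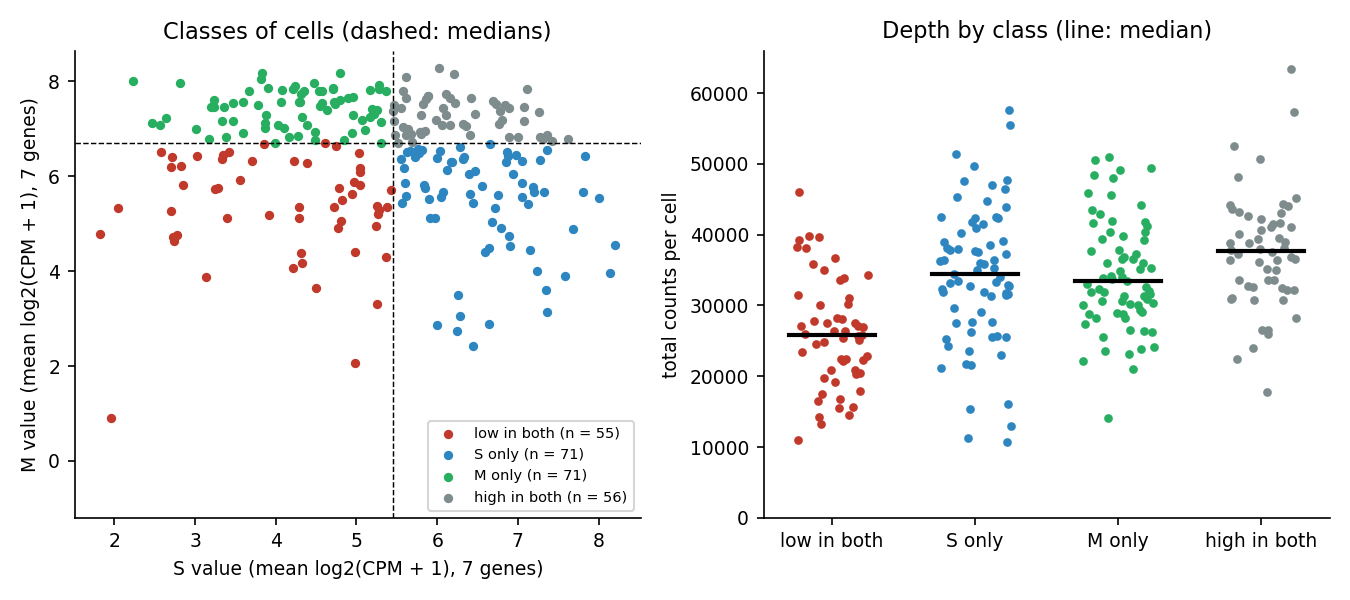
S value and M value of each cell left by the filters, both as mean log2(CPM + 1), with the medians as dashed lines, and total counts per cell by class. The 55 cells low in both fill the lower left corner by construction, and their median total of 25851 counts lay below that of the other cells, 35119.

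The cells low in both held fewer counts than the others. Their totals lay between 10981 and 46019 (median 25851), and those of the other cells between 10766 and 63342 (median 35119). They made up 39 of the 84 cells in the lowest tertile of totals (46.4%), 10 of 84 in the middle tertile (11.9%) and 6 of 85 in the highest (7.06%). They also had fewer genes with a count, with a median of 7468 against 8489. The median share of counts from the mitochondrial genome was 1.06% in them and 0.829% in the others. The share of cells low in both was 21.5% ± 10.3 (SD over 10 library sets), from 0 of 24 cells in set 7 to 8 of 23 cells (34.8%) in set 3. A gene with no count lowers the S or M value by construction, and membership and depth moved together. Depth and RNA content per cell cannot be told apart here, and the part of depth in the results below was not tested beyond the depth-matched values given with them.

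Values of the genes that chose the cells are a description. The S value in the cells low in both ran from 1.83 over a median of 4.29 to 5.43, against a median of 5.81 in the others. The M value ran from 0.909 over a median of 5.37 to 6.69, against a median of 6.97. Cells just inside the thresholds had an S value of 5.43 or an M value of 6.69, and the lowest cells outside sat at the medians, 5.45 and 6.70. Of the 55 cells, 14 lay within 0.25 of a median.

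The gate genes were lower, not absent. A cell low in both had a count in a median of 4 of the 7 S phase genes and 6 of the 7 M phase genes, and each of the 55 cells had a count in at least 2 of the first and 1 of the second. Among the S phase genes, Rrm2, a subunit of the enzyme that makes deoxynucleotides, differed most, with a mean of 29.2 CPM against 84.2 (log2 ratio -1.50). Mcm3, another helicase subunit, had 39.1 against 92.3 CPM (-1.22). Pcna, the clamp that holds DNA polymerase on its template, had 120.7 against 172.3 CPM (-0.51), and Mcm5 had 88.3 against 122.2 CPM (-0.46). Mcm6 differed least of these genes, by -0.25. Among the M phase genes, Plk1 had 50.5 against 108.2 CPM (-1.08) and Aurka, a spindle pole kinase, had a ratio of -0.79. Ccnb1 had 122.4 against 171.3 CPM (-0.48), and Cenpf, a kinetochore protein, differed least (-0.18).

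The genes that did not enter the gate give the account below. A gene counted as measured when it had a count in at least 10% of the cells left and a mean of at least 10 CPM, which 12526 genes reached with the gate genes left out. As a fixed size, 0.5 on the log2 scale was used. Of the measured genes, 1208 (9.64%) were higher by that size in the cells low in both and 1571 (12.5%) were lower. With the same direction also required in at least 8 library sets, 1.01% were higher and 526 (4.2%) lower. The sets used held 3 to 10 cells low in both, fewer than their other cells. A gene with few counts can thus have none in the class within a set and come out lower there. This favours lower genes in the count over sets and can lower the means over sets given below, by an amount not tested. The median over all measured genes was -0.04, with 6918 of the 12526 below 0 and 5608 above. Of the genes past that size, 43.5% were higher. With the other cells weighted to hold the same shares of the tertiles of totals as the cells low in both (totals matched by weighting), 53.7% were higher, and with no receptor filter 60.5%. With no filter on low genes 54.3% were higher, and with a difference of mean log2(CPM + 1) 9.94%. The other cell cycle genes come from the same cells and contrast as the choice, so their values are a description and support nothing about it.

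**Figure D2:**
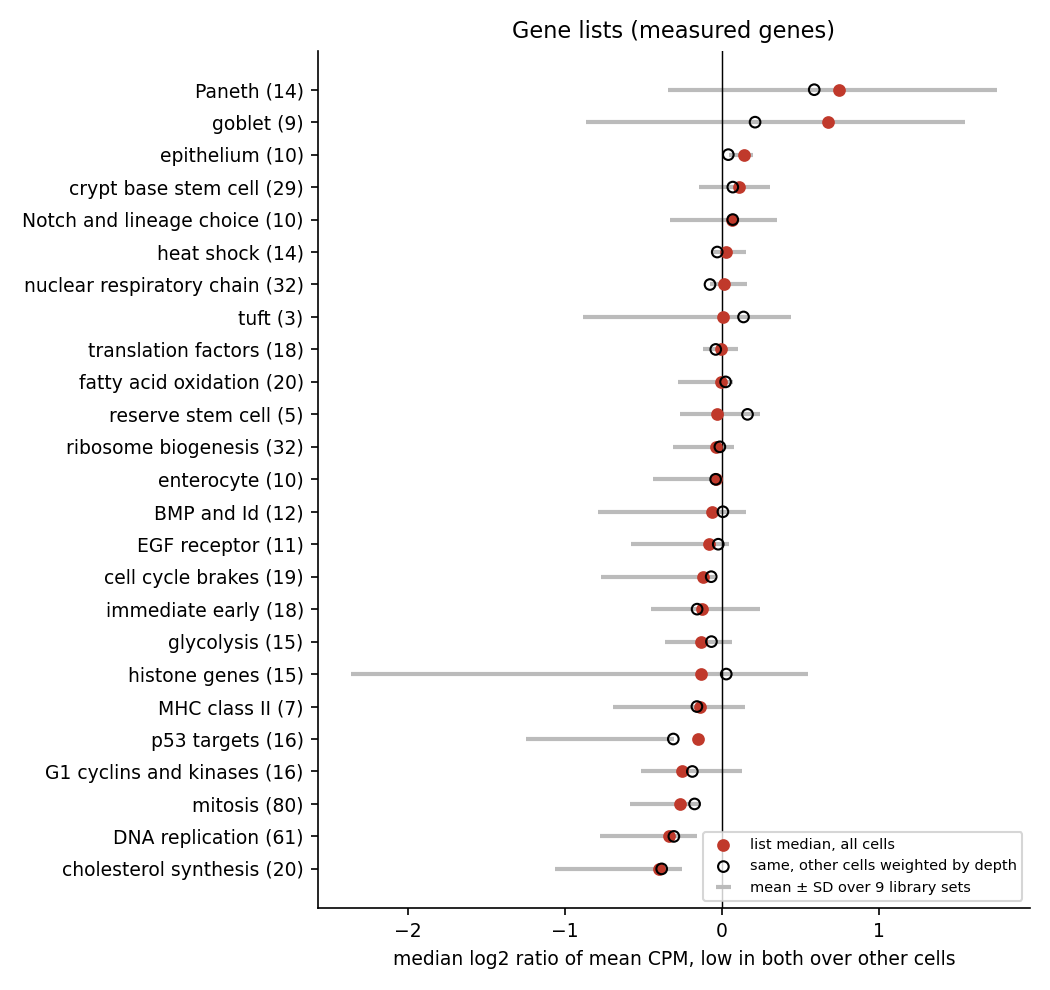
Median log2 ratio of mean CPM, low in both over other cells, of each gene list with at least 3 measured genes, their number in brackets. Filled points use all cells, open points have the other cells weighted by depth, and grey bars are the mean ± SD over 9 library sets. Among these lists the lowest medians were those of cholesterol synthesis, DNA replication and mitosis, at -0.40, -0.33 and -0.27, and the highest those of the Paneth and goblet lists, at 0.75 and 0.68.

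DNA replication genes outside the gate were lower as a group. Of 61 measured, 54 had a ratio below 0, 18 were lower by at least 0.5 and 1 was higher. Their median was -0.33, and its mean over library sets was -0.47 ± 0.31 (SD, n = 9 sets), below 0 in 9 of 9 sets. With totals matched by weighting the median was -0.31. E2f1, a factor that switches on S phase genes, had a ratio of -1.21 (11.4 against 27.8 CPM), but 0.070 with no receptor filter and 0.020 with the gate from thinned counts. Cdc6, which loads the helicase on replication origins, had -1.09 (15.8 against 34.7 CPM). The gene above 0.5 was Cdc7, a kinase that fires origins, at 0.55 but -0.88 with the gate at the lowest tertile of both values, followed by Blm, a helicase used in repair, at 0.45. Against the cells above the S median only, the list median was -0.51, and against those above the M median only it was -0.08.

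Mitosis genes outside the gate were lower by a similar size. Of 80 measured, 73 had a ratio below 0, 16 were lower by at least 0.5 and 0 were higher by it. The median was -0.27, with a mean over sets of -0.36 ± 0.23 (SD, n = 9 sets), below 0 in 9 of 9 sets, and -0.17 with totals matched by weighting. Kifc1, a spindle motor, had a ratio of -1.14 (6.601 against 15.8 CPM), -0.52 with totals matched by weighting and 0.21 with the gate from thinned counts. Dlgap5, which stabilises spindle microtubules, had -1.03 (32.96 against 68.6 CPM). At the other end were Mad2l1, part of the checkpoint that delays chromosome separation, at 0.27, and Fzr1, which activates the same ligase as Cdc20 in late mitosis and G1, at 0.20. With no receptor filter these 2 had -0.075 and -0.42. Against the cells above the M median only the list median was -0.50, and against those above the S median only it was 0.14.

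Mki67 and Top2a, the usual proliferation markers, were nearly level between the classes. Mki67 encodes Ki-67, the surfactant of mitotic chromosomes by which cycling cells are stained. In the cells low in both it ran from 65.2 over a median of 294.6 to 1058 CPM, and in the others from 61.1 over 338.2 to 630.1 CPM. The ratio of means was -0.06 ± 0.40 (SD over sets). All 55 cells low in both had a count of Mki67, as had all the other cells, and the ranges overlapped almost entirely. Top2a, the topoisomerase that untangles DNA before division, had means of 459 and 473 CPM (-0.04 ± 0.44, SD over sets), and each cell of both classes had a count. No deposited count exceeded 36, and whether this limited the ratios of abundant genes such as these was not tested.

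**Figure D3:**
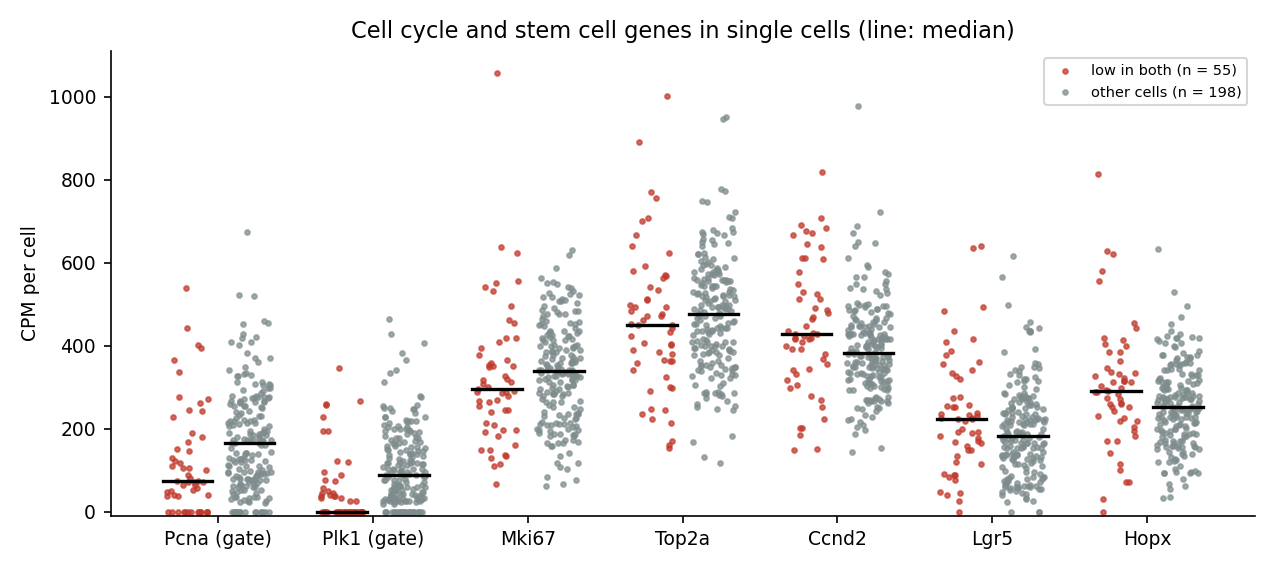
CPM per cell of named genes in the cells low in both and in the other cells, with the median of each class as a line. Mki67 overlapped almost entirely, with medians of 294.6 and 338.2 CPM, and the Lgr5 medians were 222.7 and 182.1 CPM.

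G1 genes differed among themselves. Of 16 measured G1 cyclin and kinase genes, 10 had a ratio below 0, 3 were lower by at least 0.5 and 0 were higher by it, with a median of -0.25 and a mean over sets of -0.19 ± 0.32 (SD, n = 9 sets). Over all measured genes, 6918 of 12526 had a ratio below 0, 12.5% were lower by at least 0.5 and 9.64% higher. The lowest were Skp2, which targets the inhibitor p27 for destruction, at -0.78, and Mycl, a Myc family factor, at -0.68. Ccnd2, a D-type cyclin that carries cells through G1, had 444 against 393.8 CPM (0.17), and 0.014 with totals matched by weighting. Its kinase partners Cdk4 and Cdk6 had ratios of 0.04 and 0.15. Ccne2, an E-type cyclin of the entry into S phase, had -0.49, and Ccne1 had 0.34 on few counts (22 and 73) and -0.079 as a difference of mean logs.

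Ccnd1, the D-type cyclin that Wnt signalling is known to raise, had nearly level means, 145.4 against 161.7 CPM (-0.15 ± 0.41, SD over sets), and 0.18 with gate medians taken within tertiles of totals. The share of cells with a count differed more. After each cell was thinned to 21635 counts, which 39 cells low in both and all but 10 of the others could give, Ccnd1 had a count in 71.8% of the first (exact 95% interval 55.1% to 85%) and 91.5% of the second (86.5% to 95.1%). Ascl2, a transcription factor that maintains Lgr5+ stem cells, showed the same pattern, with 76.9% (60.7% to 88.9%) and 94.1% (89.8% to 97.04%). Its mean was 172.7 against 192.9 CPM (-0.16). Over 20 other random draws Ccnd1 ran from 71.8% to 76.9% against 86.7% to 94.1%, and Ascl2 from 76.9% to 84.6% against 92.6% to 96.8%. In those draws the intervals of the 2 classes were apart in 11 of 20 for Ccnd1 and 7 of 20 for Ascl2. In the first draw these were the 2 of 31 genes compared in this way whose intervals did not overlap, and they are singled out after their values were seen. The intervals cover counting error only. At full depth 11 of 55 cells had no Ccnd1 count and 8 had no Ascl2 count, with 1 cell in both sets. The 11 cells had a median total of 27044 and the 8 cells one of 27291, against 25851 in all cells low in both. Among the other cells, 8 had no Ccnd1 count and 8 no Ascl2 count, with median totals of 26881 and 24568 against 35119 in that class.

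Genes that restrain the cycle were not higher as a group. Of 19 measured, 14 had a ratio below 0, 4 were lower by at least 0.5 and 1 was higher, with a median of -0.12. The mean of the set medians was further down, -0.40 ± 0.36 (SD, n = 9 sets). With totals matched by weighting the list median was -0.07, and with gate medians taken within tertiles of totals it was 0.019. Over all measured genes, 6918 of 12526 had a ratio below 0 and 12.5% were lower by at least 0.5. Klf4, a factor that represses proliferation in the gut, had 29.01 against 47.7 CPM (-0.70), and was lower in 9 of 9 sets. Tob1, an antiproliferative protein, had -0.65. The gene above 0.5 was Rbl2, which encodes p130, the pocket protein of resting cells, at 0.67 (34.9 against 21.6 CPM). Its SD over sets was 2.78, and without library set 1 it had -0.093. Cdkn1b, which encodes p27, was nearly level, at 57.6 against 60.7 CPM (-0.07), and Cdkn1a, which encodes p21, had -0.27 on 14 and 87 counts but 0.56 with no receptor filter and 0.074 without library set 9. Cdkn1c, which encodes p57, was under the floor for a measured gene. It had 15 counts in the cells low in both and 20 in the others, a log2 ratio of summed counts of 1.87 (exact interval 0.80 to 2.91), from 6 of 55 cells and 10 of the others. That interval covers counting error only and leaves out the spread between cells. After thinning, 12.8% (4.30% to 27.4%) and 3.72% (1.51% to 7.52%) of cells had a count of Cdkn1c, and these intervals overlapped.

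Crypt base stem cell genes lay near the level of the other cells, and the sign of their median changed with the setting. Of 29 measured, 19 had a ratio above 0, 1 was higher by at least 0.5 and 0 were lower by it. The median was 0.11, with a mean over sets of 0.08 ± 0.23 (SD, n = 9 sets), above 0 in 6. Lgr5, the receptor for which the cells were sorted, ran from 0 over a median of 222.7 to 639.6 CPM in the cells low in both and from 0 over 182.1 to 616 CPM in the others. The ranges overlapped, and the ratio of means was 0.29 ± 0.32 (SD over sets), above 0 in 7 of 9 sets. Olfm4, a secreted marker of the same cells, had 0.22 ± 0.51, Smoc2 0.11 ± 0.24, and Axin2, a feedback inhibitor of Wnt signalling, 0.07 ± 0.46. With totals matched by weighting Lgr5 had 0.26, Olfm4 0.07 and Smoc2 -0.0056, and the list median was 0.07. With no receptor filter Olfm4 had -0.084, and with the gate from thinned counts Olfm4 had -0.018 and Axin2 -0.081. The list median was -0.030 with the gate from thinned counts. As a difference of mean logs it was -0.064, where the median of all measured genes was -0.33. The gene past 0.5 was Nkd1, another Wnt feedback inhibitor, at 1.53, on 42 and 70 counts and above 0 in 4 of 9 sets. Epithelial markers had a median of 0.14 over 10 measured genes, 8 of them above 0, with a mean over sets of 0.12 ± 0.08 (SD, n = 9 sets). That median was 0.04 with totals matched by weighting and -0.03 with no receptor filter.

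Genes proposed as marks of slowly dividing or reserve stem cells gave no common direction, with a median of -0.03 over 5 measured. Hopx, a homeodomain protein, had 301.3 against 255.5 CPM (0.24 ± 0.31, SD over sets), and -0.16 with no receptor filter. Bmi1, a Polycomb protein, had -0.03 and Lrig1, an inhibitor of EGF receptor signalling, -0.14. Mex3a, the RNA-binding protein named in the title of the study, had 17 counts in the cells low in both and 47 in the others, or 13.3 and 6.86 CPM. The log2 ratio of summed counts was 0.81, with an exact interval of -0.08 to 1.64 that includes 0. Mean Mex3a was 22.4 CPM in the 23 cells low in both with high Paneth or goblet sums (described below). In the other 32 cells low in both it was 6.82 CPM, near the mean of the other cells. At full depth 9 of 55 cells (16.4%) and 24 of the others (12.1%) had a count. After thinning these were 12.8% (4.30% to 27.4%) and 8.51% (4.94% to 13.5%), and over 20 other draws 10.3% to 15.4% and 6.91% to 11.2%. The intervals overlapped. They cover counting error only and treat cells of 1 sample as independent, so whether Mex3a differed between the classes was not tested. Genes that a sorted epithelial cell should lack set the background in the same thinned cells. Cd3e, of T cells, had a count in 7.69% and 4.26% of cells, Ptprc, of leukocytes, in 5.13% and 15.96%, and Pecam1, of endothelium, in 30.8% and 20.7%. Cd8a, of T cells, had a count in 2.56% and 0% (0 of the others, exact upper limit 1.943%), and Col1a1, of fibroblasts, in 2.56% and 0.532%. The Mex3a shares lay above those of Cd3e, Cd8a and Col1a1 and below those of Pecam1 in both classes.

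Transcripts of Paneth cells, which secrete antimicrobial proteins at the crypt base, and of goblet cells, which secrete mucus, were higher. Of 14 measured Paneth genes, 13 were higher by at least 0.5 and 0 lower, with a median of 0.75 and 0.71 ± 1.05 over sets (SD, n = 9 sets, 6 above 0). Only 1 of the 13 had the same direction in at least 8 sets. Of 9 measured goblet genes, 7 were higher and 0 lower by that size, with a median of 0.68 and 0.34 ± 1.21 over sets (6 of 9 above 0). With totals matched by weighting the medians were 0.59 and 0.21, and 0.19 and 0.19 with the medians of the S and M values taken within tertiles of totals. Without the 5 highest cells of each class they were 0.19 and 0.60. With S and M values from counts thinned to 1 depth, the Paneth median was -0.43. The Paneth difference thus rested on few cells and turned with how the cells were chosen.

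**Figure D4:**
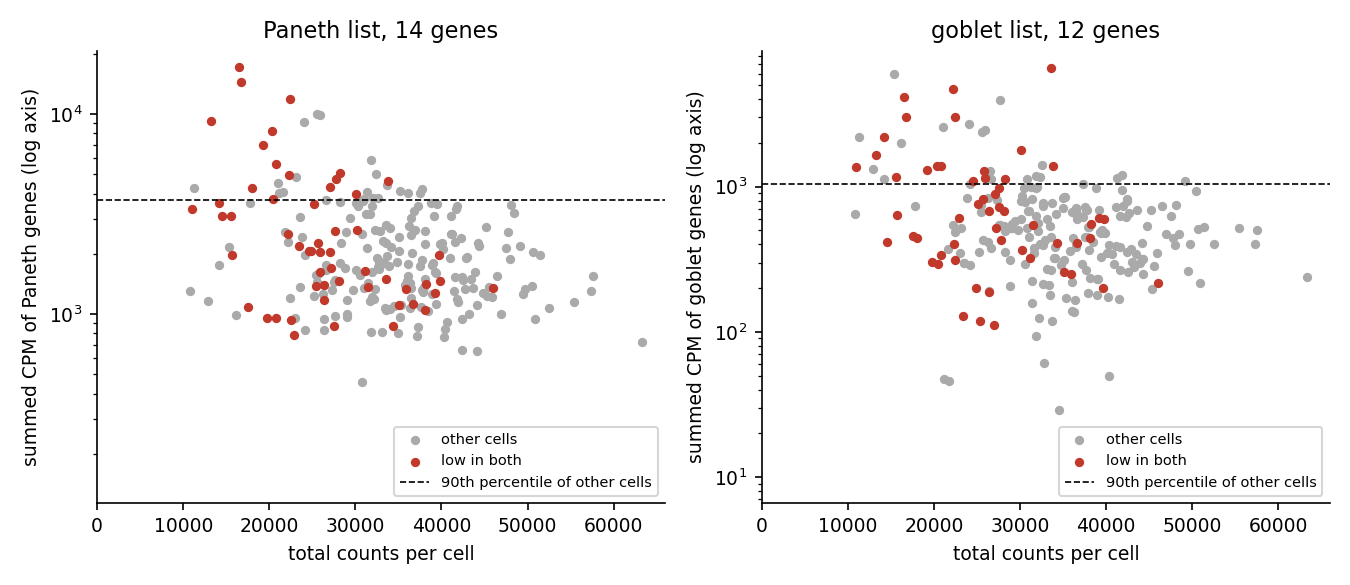
Summed CPM of the Paneth list (14 genes) and of the goblet list (12 genes) against total counts for each cell, with a dashed line at the 90th percentile of the other cells. Most cells low in both lay among the others, and 15 and 18 of the 55 lay above the lines, mainly at low totals.

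Muc2, the main mucin of goblet cells, had 81.7 against 24.5 CPM, on 97 and 140 counts, a log2 ratio of summed counts of 1.75 (exact interval 1.36 to 2.14). That interval covers counting error only and leaves out the spread between cells. The median of Muc2 was 0 in both classes, and the highest cells held 987 and 718 CPM. Agr2, a chaperone of mucin folding, had 0.99 with the same direction in 8 of 9 sets, and Clca1, a secreted goblet protein, 1.54. Lyz1, the lysozyme of Paneth cells, had means of 334.3 and 212.8 CPM and medians of 159.05 and 158.7 CPM (0.65 ± 1.00, SD over sets, above 0 in 5 of 9), and -0.25 with the gate from thinned counts. Pla2g2a, a secreted phospholipase, had the highest ratio of the list, 2.43, on 39 counts in each class. Reg3g, an antimicrobial lectin, had -0.05. The means were thus set by a subset of cells.

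Summed over the Paneth list, the cells low in both ran from 787 over a median of 2050 to 17265 CPM, and the others from 455 over 1745 to 9983 CPM. The goblet sum ran from 111.1 over 612 to 6588 CPM against 28.99 over 494 to 5938 CPM. Above the 90th percentile of the other cells in either sum were 23 of the 55 cells (41.8%, exact interval 28.7% to 55.9%) and 33 of the others (16.7%). By construction 20 of the others lay above the line of each sum, so their share is largely fixed. The 2 shares are a description and not a test. The Paneth sum put 15 of the 23 there and the goblet sum 18, with 10 cells above both. They came from 8 library sets, at most 5 from 1 set. Among the other classes 12 of 71 cells above the S median only, 14 of 71 above the M median only and 7 of 56 above both were that high. Depth moved with this share. In the lowest tertile of totals 20 of 39 cells low in both (51.3%, 34.8% to 67.6%) and 15 of 45 others (33.3%, 20.0% to 48.95%) were above a line, and in the highest tertile 0 of 6 (0% to 45.9%) and 5 of 79. Within each tertile the intervals of the 2 classes overlapped. The 23 cells still carried the transcripts of the sorted cells, with mean Lgr5 of 225.98 CPM against 243.06 in the other 32 cells low in both, and mean Mki67 of 329.3 against 318.9 CPM. The same line, which 10% of the other cells exceed by construction, was also exceeded with lists of other cell types. Of the 55 cells, 15 (27.3%) exceeded it for enteroendocrine markers, 12 (21.8%) for stromal, 11 for immune and 11 for endothelial markers, 6 for tuft and 2 for enterocyte markers. The part of these other cell types in the result was not tested. Whether RNA from neighbouring Paneth or goblet cells entered these libraries was not tested.

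Among markers of other cell types that the sort could hold, the enteroendocrine, stromal and endothelial lists were low in both classes. Enterocyte markers were not, with median sums of 834.7 CPM in the cells low in both and 872.3 CPM in the others. Tuft markers had median sums of 145.7 and 138.8 CPM. Of the enteroendocrine and stromal lists 0 genes were measured, and their summed levels had medians of 38.96 against 21.5 CPM and of 0 against 0 CPM. Their mean sums were higher in the cells low in both, at 58.6 against 29.5 CPM and 30.3 against 15.5 CPM. Mean sums of the immune list were 128.8 against 71.6 CPM, and of the endothelial list 52.1 against 41.7 CPM. Those of the enterocyte and tuft lists were 851.9 against 883.3 CPM and 171.97 against 172.66 CPM. The endothelial list had 2 measured genes, Pecam1 at 13.6 against 11.4 CPM (0.23) and Tek at 14.7 against 9.56 CPM (0.57). Without library set 1 Pecam1 had -0.17. Enterocyte genes had a median of -0.03 over 10 measured, with Fabp1, the fatty acid carrier, at 55.4 against 56.04 CPM (-0.02). Tuft cell genes had a median of 0.01 over 3, with Dclk1, a kinase that marks them, at -0.01. The measured gene of the immune list was Lyz2, at 98.8 against 43.7 CPM (1.16), which is also in the Paneth list and had -0.84 with the gate from thinned counts.

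Cholesterol synthesis genes, which build the sterol a cell needs to make membrane, were lower. Of 20 measured, 18 had a ratio below 0, 6 were lower by at least 0.5 and 1 was higher. The median was -0.40, with a mean over sets of -0.66 ± 0.41 (SD, n = 9 sets), below 0 in 9 of 9 sets, and -0.38 with totals matched by weighting. With the gate medians taken within tertiles of totals it was -0.07. Nsdhl and Msmo1, enzymes that remove methyl groups from sterol precursors, had -1.30 and -0.90, and Msmo1 had -0.0060 with the gate from thinned counts. The genes furthest above 0 were those of early enzymes of the pathway, Mvd at 0.71 and Mvk at 0.38. Mvd had -0.41 without library set 5 and -0.19 with no receptor filter, and Mvk -0.45 without library set 3.

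Other growth and signalling lists had medians close to 0. These were ribosome biogenesis (-0.03 over 32 measured genes), translation factors (-0.01 over 18), nuclear genes of the respiratory chain (0.02 over 32), fatty acid oxidation (-0.01 over 20), Notch and lineage choice (0.07 over 10) and BMP signalling (-0.06 over 12). Single members stood out within them. Eef1a1 and Eef2, the translation elongation factors, had 864 against 735 CPM (0.23 ± 0.12, SD over sets) and 602 against 482 CPM (0.32 ± 0.23), both higher in 9 of 9 sets. With totals matched by weighting these ratios were -0.0040 and 0.15. Hes1, the Notch target that blocks secretory fate, was nearly level (446 against 429 CPM, 0.06). In the EGF receptor list, with a median of -0.08 over 11, the transcriptional targets Etv5 and Spry1 had -2.34 (2.83 against 18.4 CPM) and -1.25 (18.6 against 45.6 CPM). Etv5 had 5 counts in the cells low in both, and a ratio of -0.38 with no receptor filter. It was lower in 8 of 9 sets. With so few counts, a set without one in the class comes out lower, so this agreement adds little. The list of p53 targets had a median of -0.15 over 16 measured, 3 lower and 0 higher by 0.5, and a mean of set medians of -0.77 ± 0.47 (n = 9 sets). Of the 16, 10 had a ratio below 0, against 6918 of all 12526 measured genes. With totals matched by weighting the p53 median was -0.31, and with gate medians taken within tertiles of totals it was 0.11. Medians were -0.14 over 15 measured histone genes, -0.13 over 15 of glycolysis and -0.13 over 18 immediate early genes. They were 0.03 over 14 heat shock genes and -0.14 over 7 of MHC class II, and Mex3c and Mex3d, relatives of Mex3a, had 0.27 and -1.24, with -0.22 for Mex3c with no receptor filter.

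Single genes at the ends of the ranking had few counts. Among those higher with the same direction in at least 8 sets, the highest was Mroh2a, at 32.3 against 8.89 CPM (1.75 ± 1.09, SD over sets, 41 and 60 counts). With gate medians taken within tertiles of totals it was 0.65. Creb3l1, a membrane-bound transcription factor of secretory cells, had 1.42, and Il34, a cytokine, 1.40. Ttbk2, a kinase needed to start a cilium, had 67.5 against 25.7 CPM (1.36), and Ift140, a transport protein of cilia, had 51.7 against 23.5 CPM (1.10). Ift140 was -0.48 when the 50% of cells with the highest receptor share were left out. At the other end, Klf16, a zinc finger factor, had 1.75 against 17.6 CPM (-2.76), on 2 counts in the cells low in both, and -0.42 with gate medians taken within tertiles of totals. Slc44a2, a choline transporter, had -2.32, Kif12, a kinesin, -2.03, and Dhx33, a helicase of ribosomal RNA synthesis, 13.01 against 46.3 CPM (-1.75). With the gate from thinned counts Slc44a2 had -0.20 and Dhx33 -0.40, and with no receptor filter Kif12 had -0.56.

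The genes at the 2 ends of the ranking differed in length, in opposite directions. The median span of a measured coding gene on the genome was 29.6 kb. It was 75.6 kb for the genes higher by at least 0.5 and 19.3 kb for those lower. For the coding genes higher in at least 8 sets the median was 239.4 kb, and 73.2% of them spanned at least 100 kb, against 19.2% of all measured coding genes. The coding genes lower in at least 8 sets had a median of 18.8 kb. Abundance differed too, with a median of mean CPM of 22.4 for the coding genes higher by at least 0.5 and 28.7 for those lower by it, against 49.2 for all measured coding genes. Genes of at least 100 kb took a median of 14.02% of counts in the cells low in both and 12.8% in the others.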

How the data were processed

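Messenger RNA was measured in 400 single cells by microfluidic capture and SMARTer amplification, per the labels' protocols. The authors deposited whole-number counts per gene and cell, not normalized. The submitters' processing notes name the build GRCm38.p4. How reads were aligned and counted, with which annotation, strand setting or molecular identifiers, is not given in the sources used here. Total counts per cell ran from 4491 to 70133, and no 2 cells had identical counts. Symbols and spans came from GENCODE M21. Among the named genes, 52 have exons that overlap another gene, and their counts are uncertain, as are those of genes with pseudogene copies (Gapdh had a mean of 11.9 CPM).

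CPM, log2 ratios and thinned counts (21635 per cell, with 16 cells low in both and 10 others too shallow) were computed here with numpy 2.4.6 and scipy 1.17.1, and the ratio script was tested on simulated data. Intervals are exact Clopper-Pearson, at 95%, and cover counting error only. Doublets were not removed. Members and lists were chosen with earlier results of these data known. Genes were named if in the gate, in a fixed set of 31, among the 15 highest and 15 lowest measured coding genes past 0.5 with the same direction in at least 8 sets, or the 2 highest and 2 lowest of a list. Alternatives changed the filters, pseudocount, gate medians, depth matching and sets left out, and some were added after seeing the data.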

Additional observations from a re-analysis of the deposited data

How the results depend on the processing

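The classes differ in depth, and 39 of the 55 cells low in both lie in the lowest tertile of totals. With gate medians taken within tertiles of totals, the log2 ratio of median totals turned to 0.012, as such a gate balances totals by construction. Membership changed as well. Of the 55 cells, 34 were low in both with those medians, 39 with no receptor filter and 45 with medians within library sets. With the gate from thinned counts 31 were, where 16 of the 55 were too shallow to enter. Values for genes with few counts moved most among the named genes, and no animal is named, so no biological spread can be given.

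The 1208 genes higher by 0.5 became 3060 with no receptor filter, 1815 with the lowest tertile of both values in place of the medians, 518 as a difference of mean log2(CPM + 1), 628 with a pseudocount of 10 CPM and 6422 with no filter on low genes. The 1571 lower became 2777 with the lowest tertile, 4691 as a difference of mean logs, 860 with a pseudocount of 10 and 5402 with no filter on low genes. The difference of mean logs moved the median of all genes to -0.33. It gave -0.87 for DNA replication, -0.63 for mitosis, -0.52 for the restraining genes and -0.064 for the crypt base stem cell genes. The median of the restraining genes was 0.019 with gate medians taken within tertiles of totals. With no receptor filter, the sign turned for epithelial markers (-0.027), A430033K04Rik (0.27), Tirap (0.095) and 4931414P19Rik (0.065). It also turned for Ift140 with 50% of cells left out by receptor share (-0.48), for Trf with the lowest tertile of both values (-0.31) and with gate medians within tertiles of totals (-0.077), for Arhgap6 with the gate from thinned counts (-0.024), and for Qpctl with gate medians within tertiles of totals (0.41) and within sets (0.16). The cause was not tested. With 1 library set left out in turn, DNA replication ran from -0.38 to -0.31, mitosis from -0.32 to -0.23, restraining genes from -0.22 to -0.06, stem cell genes from 0.08 to 0.14, higher genes from 1072 to 1368 and lower genes from 1551 to 1844. A ratio counts here as turned only if it was past 0.5 with the same direction in at least 8 sets, and a list median only if it exceeded its SD over sets. Without that condition, 80 of the single-gene ratios and 18 of 25 list medians changed sign in at least 1 setting, among them 24 of the 83 genes past 0.5, such as Nupr1 (1.65, and -0.80 with the gate from thinned counts).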
